A study of Mus musculus with 24 samples.

Results

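Cerebrum and cerebellum of mice with an induced Polr3a mutation were compared for their response to that mutation at postnatal day 42 (P42), to find which changes both tissues had and which belonged to 1 of them. The comparison covers 16 of the 24 libraries of the series: 4 mutant and 4 wild type libraries of each tissue, all the columns of the P42 count table. The groups carried the genotypes "Polr3a mutant" and "Wildtype" on C57BL/6J, and every animal, wild types included, received tamoxifen at P28, 14 days before P42. Males and females were 2 and 2 in both cerebrum groups and in mutant cerebellum, and 3 and 1 in wild type cerebellum. The labels name neither the Cre driver nor the base change, and do not say whether wild types carried Cre, so effects of Cre and of the mutation cannot be told apart. They do not tie libraries to animals either, neither within a tissue nor between the 2, so p-values measure the spread between libraries, and the numbers 1 to 4 of replicates name libraries only.

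The catalytic core of RNA polymerase III is built around the Polr3a product, its largest subunit. This enzyme transcribes the genes of transfer RNAs, of 5S ribosomal RNA and of further small noncoding RNAs. In humans, variants of this enzyme cause leukodystrophies in which cerebellum and white matter are affected. Cells short of charged transfer RNA or amino acids can start the integrated stress response, in which the transcription factor ATF4 raises genes of amino acid uptake, serine and folate metabolism and transfer RNA charging. The libraries select polyadenylated RNA, so the products of RNA polymerase III themselves lie largely outside what was measured.

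Genes of 2 kinds came out of the comparison. A small set moved in the same direction in both tissues: among genes that rose were Mthfd2, Herpud1 and Nars, which are linked to ATF4 or to transfer RNA charging, and Esr1, Hif3a, Pla2g3, Otoa and Trim66, while the clone-named transcripts 9630013A20Rik and Gm28294 fell. Another set of 10 genes, with Synpo2, Wnt3, Plekhg1, Vangl1, Slitrk6 and Prkcd among them, was 2.44 to 11.9 times as high in mutant as in wild type cerebrum and passed no test in cerebellum. Of these 10 genes, Synpo2 alone was still called without cerebrum mutant replicates 3 and 4. In males only, 0 genes were called in cerebrum. A list of thalamus, hypothalamus and midbrain markers holds 6 of the 10. The test of the difference between tissues itself was passed by no gene. The scatter of both effects shows the 2 sets.

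**Figure D1:**
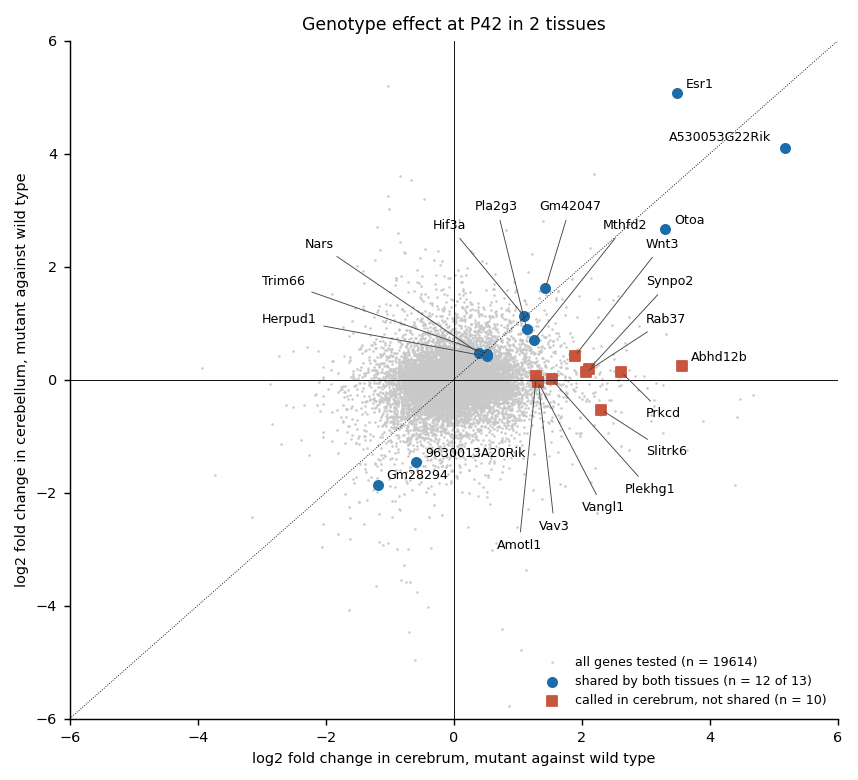
Log2 fold change of mutant against wild type in cerebrum (x axis) and cerebellum (y axis) at P42, 1 point per gene tested (n = 19614). Blue circles are 12 of the 13 genes shared by both tissues, red squares the 10 genes called in cerebrum and not shared, and the dotted line marks equal effects; the squares lie between -0.53 and 0.42 in cerebellum.

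Total counts per library were 13832721 to 23175864, and sex-linked transcripts matched the labelled sex in 16 of 16. Tissue markers fitted the labels: Tbr1, a cortical transcription factor gene, had 7.71 to 158 CPM (counts scaled to a common library total) in cerebrum and at most 1.63 CPM in cerebellum, and En2, of the cerebellar field, 37.0 to 162 CPM in cerebellum and at most 15.7 CPM in cerebrum. Within tissues some libraries stood apart. Cerebrum mutant replicates 3 and 4 had 7.71 and 9.22 CPM of Tbr1, where the other 6 cerebrum libraries had at least 76.0 CPM. The mean level of a list of thalamus, hypothalamus and midbrain markers was highest in these libraries, though not every marker was. In cerebellum, mutant replicate 1 had 12.2 CPM of Ttr, which encodes transthyretin and is high in choroid plexus, against 646 to 2115 CPM in the other 7 libraries. There mutant replicates 2 and 4 had the lowest En2 (61.9 and 37.0 CPM), and wild type replicate 2 had 49.0 CPM of Tcf7l2, a thalamic gene, against at most 10.98 CPM in the others. Values without cerebrum mutant replicates 3 and 4 are given for the genes called in cerebrum and for several lists; in bulk tissue, fewer cells of a type and less RNA per cell cannot be told apart.

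The targeted gene was examined first. Polr3a (ENSMUSG00000025280, chr14:24448696-24487058, mm10) had 33.7, 39.4, 37.8 and 38.9 CPM in mutant replicates 1 to 4 of cerebrum and 36.8, 40.8, 43.9 and 45.7 CPM in wild types. In cerebellum it had 55.0, 52.0, 52.4 and 43.0 CPM in mutants and 57.1, 57.2, 45.4 and 40.6 CPM in wild types. The groups overlapped in both tissues, and the log2 fold changes were -0.16 ± 0.13 (SE) in cerebrum and 0.03 ± 0.13 in cerebellum, with a difference of 0.19 (95% interval -0.21 to 0.58). A changed base need not change the transcript level, so this is no check of the genotype labels.

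The question of the design is whether the effect of the mutation differed between the tissues, and it was tested as the interaction of genotype and tissue in 1 fit over the 16 libraries, with sex as a covariate. A value below 0 means that the log2 fold change was lower in cerebellum than in cerebrum. In edgeR's quasi-likelihood test 0 of 19614 genes passed an adjusted p of 0.05 (0% called; the smallest adjusted p was 0.130, of Synpo2), while 1213 genes, 6.18%, had an unadjusted p under 0.05, 552 above 0 (2.81%) and 661 below (3.37%). DESeq2 called 7 genes, all lower in cerebellum than in cerebrum: Synpo2, Slitrk6, Prkcd, Plekhg1, Vangl1, Wnt3 and Lef1. The interaction is also the contrast with the widest error: its median SE was 0.340, against 0.170 for the mean effect over both tissues.

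By contrast 15 genes, 0.0765% of those tested, passed on the mean effect, 12 higher (0.0612%) and 3 lower (0.0153%) in mutants, and 1697 genes (8.65%) had an unadjusted p under 0.05. A gene was counted as shared if it passed on the mean effect, had the same direction with an unadjusted p under 0.05 in each tissue, and was not called by the interaction. This was met by 13 genes (0.0663%), 10 higher and 3 lower, and the other 2 of the 15 were Synpo2 and Wnt3. Within single tissues the same fit called 12 genes in cerebrum (0.0612%), all higher in mutants, and 1 gene in cerebellum (0.0051%), Esr1. At an unadjusted p under 0.05 there were 2467 genes (12.6%) in cerebrum and 755 (3.85%) in cerebellum. Of these, 128 genes (0.653% of all genes) moved in the same direction in both tissues, 75 higher and 53 lower, and 13 in opposite directions; the 128 are 5.19% of the cerebrum list and 16.95% of the cerebellum list. Over all genes the direction was the same in 50.2%, and the log2 fold changes had a Pearson correlation of 0.104 and a Spearman correlation of 0.059 across 19614 genes, which are not independent replicates.

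Among shared genes, those of the ATF4 programme and of transfer RNA charging come first. Mthfd2 encodes a mitochondrial enzyme of folate metabolism and is a target of ATF4 (ENSMUSG00000005667, chr6:83305691-83325908). It had 22.4, 19.9, 14.2 and 20.6 CPM in mutant cerebrum and 8.49, 6.97, 9.75 and 7.14 CPM in wild types. In cerebellum it had 35.8, 24.3, 32.6 and 21.99 CPM in mutants and 17.5, 16.03, 15.3 and 21.7 CPM in wild types. Every mutant library lay above every wild type of its tissue, closely so in cerebellum, where the lowest mutant and the highest wild type nearly met. The log2 fold change was 1.25 ± 0.20 in cerebrum (edgeR adjusted p = 0.0219) and 0.70 ± 0.20 in cerebellum (adjusted p = 0.992), with a mean of 0.98 ± 0.14 (adjusted p = 0.0162). The difference between tissues was -0.55, with an interval of -1.14 to 0.03, so a cerebellar effect equal to that in cerebrum and one much smaller both lie within it.

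Herpud1 encodes a membrane protein of the endoplasmic reticulum that takes part in the degradation of misfolded proteins (ENSMUSG00000031770, chr8:94386438-94395377). Mutant cerebrum had 99.98, 80.4, 80.2 and 75.1 CPM against 63.1, 56.5, 60.2 and 55.0 CPM in wild types, and mutant cerebellum 107, 91.2, 89.3 and 106 CPM against 73.4, 78.9, 73.7 and 75.4 CPM. The groups did not overlap in either tissue, and the rises were alike in size: 0.51 ± 0.11 in cerebrum and 0.41 ± 0.11 in cerebellum, with a mean of 0.46 ± 0.08 (edgeR adjusted p = 0.0334) and a difference of -0.10 (95% interval -0.42 to 0.22). Nars, the gene of the asparaginyl-tRNA synthetase, which joins asparagine to its transfer RNA, had 211 to 259.6 CPM in mutant and 163 to 192 CPM in wild type cerebrum, and 248 to 285 CPM in mutant and 183 to 203 CPM in wild type cerebellum. These ranges were apart in both tissues as well, with a mean log2 fold change of 0.43 ± 0.07 (edgeR adjusted p = 0.0421) and a difference of 0.07 (95% interval -0.25 to 0.38). For Herpud1 and Nars the intervals leave out a difference between tissues as large as their own mean effect.

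The upstream sequences of 3 genes with ATF4 among their known regulators are shown because members of this programme had positive log2 fold changes in both tissues and their windows differ in whether they hold the letters of a C/EBP-ATF response element, to which ATF4 can bind. The letters searched were TGATGNAA on both strands, in the 250 bases before the RefSeq start (build GRCm38.p6), and capitals mark a match. Sequences are given 5′ to 3′ on the strand of the gene: Herpud1 from chr8:94386179-94386428 (plus strand), Chac1, which encodes a glutathione-degrading enzyme, from chr2:119350992-119351241 (plus strand), and Mthfd2 from chr6:83317605-83317854 (minus strand).
Herpud1: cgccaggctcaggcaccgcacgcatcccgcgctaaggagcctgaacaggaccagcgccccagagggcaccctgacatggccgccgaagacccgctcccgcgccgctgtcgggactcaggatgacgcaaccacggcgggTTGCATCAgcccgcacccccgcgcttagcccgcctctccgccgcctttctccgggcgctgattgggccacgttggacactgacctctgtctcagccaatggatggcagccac
Chac1: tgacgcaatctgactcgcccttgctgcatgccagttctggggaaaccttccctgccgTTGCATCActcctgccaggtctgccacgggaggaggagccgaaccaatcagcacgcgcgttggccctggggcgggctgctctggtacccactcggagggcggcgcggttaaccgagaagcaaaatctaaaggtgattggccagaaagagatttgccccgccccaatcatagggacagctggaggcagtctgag
Mthfd2: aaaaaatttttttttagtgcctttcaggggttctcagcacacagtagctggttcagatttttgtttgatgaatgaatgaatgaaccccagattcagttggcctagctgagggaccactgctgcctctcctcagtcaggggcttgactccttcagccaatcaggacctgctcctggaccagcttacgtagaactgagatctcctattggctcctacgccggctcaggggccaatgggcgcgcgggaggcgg

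Herpud1 and Chac1 hold the same 8 letters, TTGCATCA, the match on the other strand, which begin 112 and 193 bases before the start; the window of Mthfd2 has no match. Among all 32851 RefSeq windows, 3.45% hold a match, as do 2.47% of the 12908 tested genes with a window, 9 of 30 genes of the ATF4 list (30%), 2 of the 8 shared genes with a window (Herpud1 and A530053G22Rik) and 2 of the 10 genes called in cerebrum with one. The ATF4 list was drawn up from known targets, so its share is a property of the list, and a match is a run of letters, not a site shown to be bound. Chac1 (ENSMUSG00000027313, chr2:119351229-119354381) had 18.2, 17.3, 10.5 and 18.8 CPM in mutant and 6.56, 4.37, 6.65 and 2.31 CPM in wild type cerebrum. In cerebellum it had 26.9, 7.28, 21.6 and 9.79 CPM in mutants and 7.97, 5.86, 8.99 and 7.56 CPM in wild types. The groups were apart in cerebrum and overlapped in cerebellum, where replicates 1 and 3 were high and replicates 2 and 4 were at or near the wild type level, and the mean of 1.44 ± 0.28 missed the threshold (edgeR adjusted p = 0.0719).

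The remaining shared genes that rose have other roles. Esr1, the gene of estrogen receptor alpha (ENSMUSG00000019768, chr10:4611593-5005614), had 63.9, 62.3, 39.7 and 42.1 CPM in mutant and 1.58, 3.55, 3.98 and 9.98 CPM in wild type cerebrum. Its cerebellum values were 78.5, 50.4, 72.4 and 49.0 CPM in mutant and 1.68, 1.62, 2.11 and 1.73 CPM in wild types. No mutant library came near a wild type in either tissue. Its log2 fold changes were 3.49 ± 0.38 (edgeR adjusted p = 9.0e-04) and 5.07 ± 0.42 (adjusted p = 4.7e-05), and the difference of 1.58 (95% interval 0.44 to 2.73) had an unadjusted p of 0.00969 and an adjusted p of 0.732. Mutant levels were much the same in the tissues, while wild type levels were higher in cerebrum, 4.77 ± 3.62 against 1.78 ± 0.221 CPM (SD, n = 4 each). Tamoxifen acts on estrogen receptors, and Cre recombinases that it induces carry a part of one; which libraries held such a transgene is not in the labels, and its part in the Esr1 counts was not tested.

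Hif3a encodes a hypoxia-inducible factor subunit that the glucocorticoid receptor also regulates (ENSMUSG00000004328, chr7:17031507-17062427). It had 62.5, 47.7, 47.7 and 26.9 CPM in mutant and 19.7, 23.3, 28.4 and 13.9 CPM in wild type cerebrum. Its cerebellum values were 58.5, 56.0, 28.5 and 68.0 CPM in mutant and 27.8, 25.3, 29.8 and 21.3 CPM in wild types. In each tissue 1 mutant library, replicate 4 of cerebrum and replicate 3 of cerebellum, fell among the wild types. The effects were nearly equal, 1.10 ± 0.25 and 1.12 ± 0.25, with a mean of 1.11 ± 0.18 (edgeR adjusted p = 0.0303) and a difference of 0.02 (95% interval -0.73 to 0.76). Pla2g3, the gene of a secreted phospholipase (ENSMUSG00000034579, chr11:3488284-3499350), had 21.6, 25.4, 29.0 and 17.1 CPM against 10.3, 9.16, 14.002 and 8.96 CPM in cerebrum, and 45.7, 45.5, 29.3 and 73.8 CPM against 31.7, 24.5, 31.1 and 22.2 CPM in cerebellum. Its groups were apart in cerebrum, and in cerebellum mutant replicate 3 was again the one that fell among wild types. The mean effect was 1.02 ± 0.17 (edgeR adjusted p = 0.0404), with a difference of -0.24 (95% interval -0.97 to 0.48).

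Otoa, the gene of otoancorin, a protein of the inner ear, was low in all libraries (ENSMUSG00000034990, chr7:121081650-121163097). It had 3.08, 7.42, 6.08 and 1.30 CPM in mutant and 0.0585, 0.182, 0.872 and 0.697 CPM in wild type cerebrum. Cerebellum libraries had 6.05, 6.46, 1.60 and 3.36 CPM in mutant and 0.699, 0.471, 0.702 and 0.865 CPM in wild types. The groups did not overlap, and the mean effect of 2.98 ± 0.45 (edgeR adjusted p = 0.0213) came with a wide interval for the difference, -2.53 to 1.24. Trim66, which encodes a chromatin-binding protein of the TRIM family (ENSMUSG00000031026, chr7:109449006-109508134), had 72.7 to 94.5 CPM in mutant and 46.7 to 64.0 CPM in wild type cerebrum, and 51.3 to 63.0 CPM in mutant and 41.0 to 46.9 CPM in wild type cerebellum. Its groups did not overlap in either tissue, with a mean of 0.49 ± 0.09 (edgeR adjusted p = 0.0430) and a difference of -0.06 (95% interval -0.42 to 0.31).

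A further 4 shared transcripts have clone names, fall outside the rule for naming genes and are named after their values were seen. Gm42047 (chr8:121833247-121841178) had 25.6, 13.5, 11.8 and 16.6 CPM against 4.57, 8.61, 5.78 and 6.12 CPM in cerebrum, and 29.8, 9.61, 19.8 and 11.6 CPM against 4.20, 4.24, 7.02 and 7.38 CPM in cerebellum (mean effect 1.52 ± 0.25, edgeR adjusted p = 0.0349). Its groups were apart in both tissues, and in cerebellum replicates 1 and 3 were the highest, as for Chac1. A530053G22Rik (chr6:60279043-60403707) had 2 to 31 counts in each mutant and 0 to 1 in each wild type library of cerebrum, and 3 to 72 against 0 to 2 counts in cerebellum, too few for a fold of any precision. 9630013A20Rik (chr14:84458639-84476424) was lower in mutants, with 4.89 to 7.99 CPM against 8.58 to 10.4 CPM in cerebrum and 1.29 to 3.35 CPM against 6.81 to 7.44 CPM in cerebellum (mean effect -1.03 ± 0.17, edgeR adjusted p = 0.0334). Gm28294 (chr1:75252322-75257427), also lower, had at most 3.11 CPM in any library (-1.52 ± 0.23, edgeR adjusted p = 0.0213). The annotation gives 9630013A20Rik as antisense to another gene, and since strand use in counting is not stated, its reads and those of its partner cannot be told apart.

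**Figure D2:**
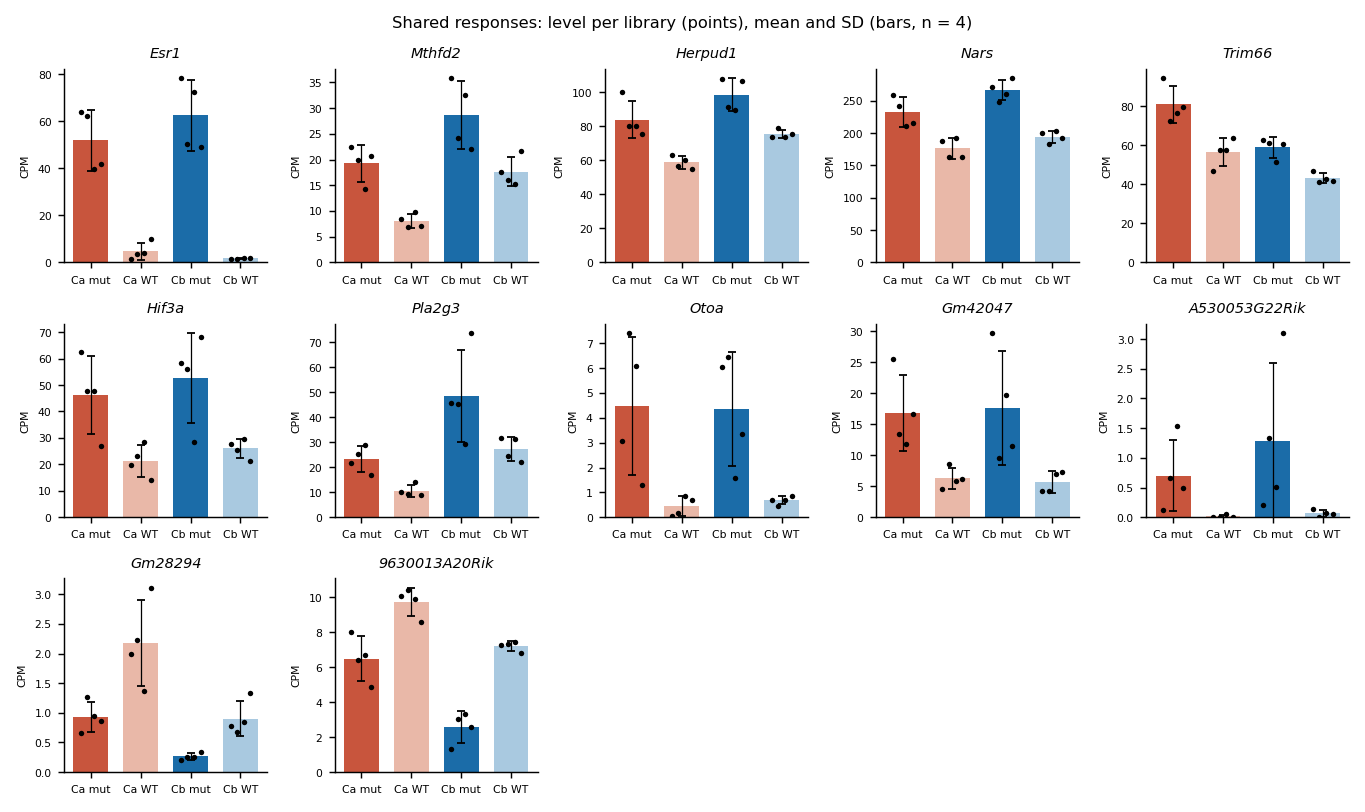
Level in CPM of 12 of the 13 shared genes in mutant (mut) and wild type (WT) libraries of cerebrum (Ca) and cerebellum (Cb) at P42; points are libraries in the order of replicates 1 to 4, bars the mean and whiskers the SD of 4 libraries. Hif3a overlaps between genotypes in both tissues and Pla2g3 in cerebellum, while the others are apart in both tissues.

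How firmly these genes are shared differs among them. Groups did not overlap for 6.28% of all genes in cerebrum (3.09% with mutants above, 3.19% below) and for 3.29% in cerebellum (1.59% above, 1.71% below). They were apart in both tissues in the same direction for 45 genes (0.229%), among them 11 of the 13 shared ones, whose choice used the same values. Without cerebrum mutant replicates 3 and 4 the shared set had 4 genes, Esr1, Hif3a, Mthfd2 and Otoa; Herpud1, Nars and Gm42047 then had an adjusted p of 0.0763 each, and their mean effects were as large or larger, 0.51, 0.49 and 1.63. With cerebrum mutant replicates 3 and 4 and cerebellum mutant replicate 1 all left out, 1 shared gene remained, Esr1, and the set fell to 1 gene without cerebrum wild type replicate 2 and to 1 or 2 genes without any 1 of the 4 cerebellum wild types. With the replicate number as a block, 3 of the 13 were kept, Esr1, Hif3a and Pla2g3. Esr1 alone passed on the mean effect under every alternative run, 29 of 29. With no filter on low counts the interaction called it (1.55, edgeR adjusted p = 5.3e-05), so that it left the shared set, and its call in cerebrum was lost in males only (adjusted p = 0.0866) and in a separate fit per tissue (0.0716).

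The series also holds cerebrum of mutants and wild types at P75, in a table of its own, which gives levels of these genes in libraries the calls did not use. All 8 of these libraries are from males, also given tamoxifen at P28, while the P42 groups hold both sexes. Of the 13 shared genes 11 passed the filter there, and for 7 of them the 4 mutant libraries lay on the same side of the 4 wild types without overlap, where 20% of all genes at P75 had groups apart (10.1% above and 9.87% below). These were Esr1, Mthfd2, Herpud1, Nars, Trim66 and Gm42047 above, and 9630013A20Rik below. Mthfd2 had 26.1 to 36.5 CPM in mutants and 10.5 to 13.8 CPM in wild types, Nars 315 to 355 and 193 to 211 CPM, and Trim66 76.5 to 92.8 and 50.3 to 54.3 CPM. Hif3a and Pla2g3 overlapped at P75, with mutant means of 9.70 and 6.47 CPM against 11.5 and 5.86 CPM. Ages were deposited in separate tables, so P42 and P75 levels are not set against each other.

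The second set was called in cerebrum and not in cerebellum. That is no test of a difference between tissues, and the interaction called none of these genes in the main edgeR fit. Of the 12 genes called in cerebrum, Esr1 and Mthfd2 are shared. The other 10 were Synpo2, Wnt3, Plekhg1, Vangl1, Slitrk6, Prkcd, Amotl1, Vav3, Rab37 and Abhd12b. Of the 12, 11 had an unadjusted interaction p under 0.05, against 6.18% of all genes; the call in cerebrum uses the same cerebrum values, so this count is a description. The number called in cerebrum was 81 without mutant replicate 1, and 5, 3 and 3 without mutant replicate 3, mutant replicate 4 and wild type replicate 2. Of the mutants, replicate 1 was nearest to wild type in the mean levels of cortical markers and of thalamus, hypothalamus and midbrain markers. Synpo2 encodes an actin-binding protein (ENSMUSG00000050315, chr3:123076519-123236149). It had 73.7, 41.8, 82.1 and 56.6 CPM in mutant and 22.5, 12.8, 9.97 and 12.8 CPM in wild type cerebrum. In cerebellum it had 11.1, 10.5, 8.61 and 9.83 CPM in mutant and 9.65, 9.43, 8.64 and 9.40 CPM in wild types. All cerebellum libraries and 3 of the 4 wild type cerebrum libraries sat at about the same low level, and the mutant cerebra rose above it. The effects were 2.11 ± 0.21 (edgeR adjusted p = 4.4e-04) and 0.18 ± 0.21, and the difference was -1.93 (95% interval -2.55 to -1.31, adjusted p = 0.130).

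Prkcd encodes protein kinase C delta, abundant in thalamic relay neurons (ENSMUSG00000021948, chr14:30595354-30626210). It had 279, 147, 251 and 208 CPM in mutant and 90.0, 22.8, 20.2 and 18.9 CPM in wild type cerebrum. Its cerebellum values were 98.7, 47.5, 69.5 and 57.0 CPM in mutant and 70.1, 67.0, 60.7 and 70.7 CPM in wild type libraries. Wild type cerebrum replicate 1 stood well above its group, and the cerebellum groups overlapped fully. The difference was -2.48 (95% interval -3.59 to -1.37, edgeR adjusted p = 0.674), or -3.30 without that wild type library, when it passed (adjusted p = 6.2e-04), as did Synpo2 (-2.19, adjusted p = 0.00647). Slitrk6, of a family of transmembrane proteins of neurons (ENSMUSG00000045871, chr14:110748580-110755149), had 11.1 to 18.2 CPM in mutant and 2.23 to 4.33 CPM in wild type cerebrum, against 0.476 to 1.70 CPM and 1.15 to 2.22 CPM in cerebellum. Its difference, -2.83, had an interval of -3.91 to -1.76 (edgeR adjusted p = 0.409).

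Wnt3, a secreted Wnt ligand gene (ENSMUSG00000000125, chr11:103774150-103817957), had 15.2, 13.2, 17.5 and 15.8 CPM in mutant and 6.38, 3.64, 3.76 and 2.95 CPM in wild type cerebrum. In cerebellum it had 26.6, 17.9, 18.5 and 29.5 CPM in mutants and 16.9, 18.5, 16.2 and 19.3 CPM in wild types. Mutant replicates 1 and 4 of cerebellum were above all wild types and the other mutants were not, and the effects were 1.89 ± 0.23 in cerebrum (edgeR adjusted p = 0.00208) and 0.42 ± 0.22 in cerebellum, with a difference of -1.47 (95% interval -2.13 to -0.82). Vangl1, a planar cell polarity gene (chr3:102153583-102204693), had 14.6 to 22.9 CPM in mutant and 5.83 to 10.3 CPM in wild type cerebrum and a difference of -1.35 (-1.94 to -0.77). Lef1, a transcription factor gene of the Wnt pathway (chr3:131110471-131224356), was not called in either tissue and had 10.9 to 19.5 CPM against 5.60 to 8.84 CPM in cerebrum and 2.11 to 4.59 CPM against 3.77 to 5.74 CPM in cerebellum. With 1.07 ± 0.24 and -0.60 ± 0.26, its estimates had opposite signs, and the difference was -1.67 (95% interval -2.42 to -0.92, edgeR adjusted p = 0.674), or -1.40 without cerebrum mutant replicates 3 and 4.

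Plekhg1 (chr10:3740364-3967303) and Vav3 (chr3:109340653-109685698), a pair of genes of exchange factors for small GTPases, and Amotl1 (chr9:14541966-14645056), a gene of an angiomotin family protein at cell junctions, were alike. Plekhg1 had 60.1 to 115 CPM in mutant and 21.96 to 41.8 CPM in wild type cerebrum, Vav3 18.5 to 33.2 and 6.70 to 13.6 CPM, and Amotl1 108 to 213 and 50.5 to 85.7 CPM. In cerebellum all 3 overlapped, with effects of 0.01 ± 0.21, -0.04 ± 0.21 and 0.06 ± 0.20, and their differences were -1.52, -1.36 and -1.23. Rab37, a small GTPase gene (chr11:115091431-115162236), had 14.7 to 26.9 CPM in mutant and 1.96 to 8.66 CPM in wild type cerebrum, and more in cerebellum, 29.5 to 37.7 and 26.9 to 38.0 CPM, so its cerebellum level was not too low to show a change (0.13 ± 0.32). Abhd12b (chr12:70154142-70183887), a hydrolase gene, had 7.32 to 12.997 against 0.381 to 2.40 CPM in cerebrum and at most 1.02 CPM in any cerebellum library, where a change could hardly be seen at this depth.

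**Figure D3:**
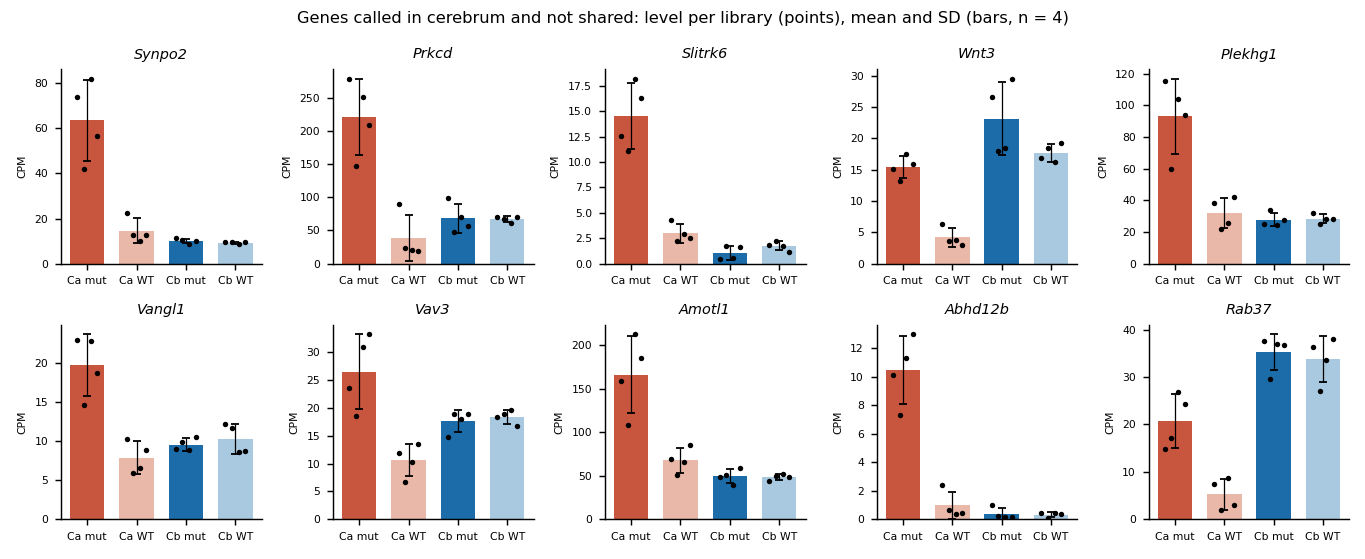
Level in CPM of the 10 genes called in cerebrum and not shared, in mutant (mut) and wild type (WT) libraries of cerebrum (Ca) and cerebellum (Cb) at P42; points are libraries in the order of replicates 1 to 4, bars the mean and whiskers the SD of 4 libraries. All mutant cerebra lie above all wild type cerebra, and the cerebellum groups overlap for each gene.

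**Figure D4:**
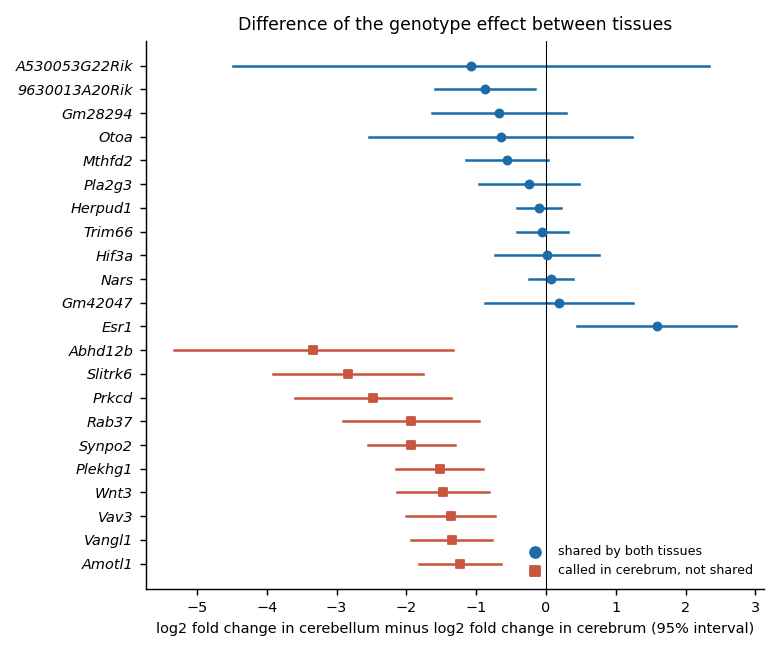
Log2 fold change in cerebellum minus that in cerebrum with its 95% interval, for 12 of the 13 shared genes (blue circles) and the 10 genes called in cerebrum and not shared (red squares). Intervals of the red genes lie below 0, and those of 10 of these shared genes span 0, the exceptions being 9630013A20Rik and Esr1. Both sets were chosen by rules that use the same values, so this split is a description. No gene drawn passed the interaction after adjustment over all genes.

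Markers of other brain regions also differed between genotypes in cerebrum. The list of 36 markers of thalamus, hypothalamus and midbrain, 6 of which are among the 12 called genes and which was drawn up with earlier results of these data known, had a positive effect for 36 of 36 members in cerebrum (median 1.31, against -0.00 over all genes; 23 at an unadjusted p under 0.05, background 6.16%) and for 18 in cerebellum (median -0.01). Its mean level per library, in log2 units against the wild types of the tissue, was 0.43, 1.34, 2.21 and 2.04 in mutant replicates 1 to 4 of cerebrum and -0.31, -0.80, 0.44 and 0.67 in wild types. Mutant replicate 1 was within the wild type range of the list and the other mutants above it. Its single markers did not all do so: it had 3.67 CPM of Gbx2, a thalamic transcription factor gene, where wild types had at most 1.66 CPM, and 58.8 CPM of Tcf7l2, where they had 8.16 to 51.9 CPM. Hcrt, the hypothalamic orexin gene, was at 0 in that library and at 15.6 to 28.5 CPM in the other mutants. Prkcd, a called gene on the list, did not follow the order of its mean level. Among the mutants it was highest in replicate 1 and lowest in replicate 2, at 279 and 147 CPM. Markers of cortical and hippocampal excitatory neurons had levels of -0.04, -0.32, -2.14 and -1.68 in the mutants and -0.11 to 0.26 in wild types, and a median effect of -0.84 in cerebrum and -0.01 in cerebellum. Without cerebrum mutant replicates 3 and 4 the median of the deep region list was 0.70, that of the excitatory list -0.19, and 2 genes were still called in cerebrum, Synpo2 (1.97, edgeR adjusted p = 0.0124) and Esr1. The other 10 calls were lost: Prkcd then had 2.53 (adjusted p = 0.211), Slitrk6 2.01 (0.391), Wnt3 1.77 (0.0886), Plekhg1 1.43 (0.211), Vangl1 1.24 (0.313) and Abhd12b 3.31 (0.313). Amotl1 had 0.97 (0.430), Vav3 0.99 (0.790) and Rab37 1.69 (0.789), and Mthfd2, a shared gene, had 1.39 (0.102). With the deep region level of cerebrum libraries and the choroid plexus level of cerebellum libraries as covariates, Synpo2 had 2.22 (edgeR adjusted p = 0.0349) and its difference between tissues was -2.01. Prkcd then had 3.12 (0.177), and Vav3 and Rab37 moved to 0.73 and 1.24 (0.725 and 0.735). Synpo2, Prkcd and Vav3 are on the deep region list, so this covariate holds their own values. With called genes left out of the covariates, Synpo2 was still called in cerebrum, and Prkcd, Vav3 and Rab37 were not. The deep region level was itself above the wild type range in all mutant cerebra but replicate 1. Covariate and genotype are therefore hard to tell apart in cerebrum, and no conclusion is drawn from calls kept or lost with it. The choroid plexus covariate was apart between genotypes in cerebellum, so no conclusion is drawn from the adjusted difference of Synpo2. At P75 the cerebrum groups overlapped for Synpo2 (28.2 to 31.4 against 27.1 to 33.0 CPM), Slitrk6, Plekhg1, Wnt3 and Vangl1, and were apart for Prkcd (102 to 111 against 83.7 to 91.5 CPM). Of the 12 genes called in cerebrum at P42, 3 had mutants above wild types at P75, Prkcd and the shared Esr1 and Mthfd2. Among all genes at P75 this share was 10.1%, so Prkcd alone of the 10 genes not shared is no more than that share.

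Genes with an interaction estimate above 0, lower in mutant cerebrum or higher in mutant cerebellum, had weaker support, with an adjusted p of 0.732 for each of the 10 with the smallest p. Dio2, the gene of the enzyme that activates thyroid hormone (ENSMUSG00000007682, chr12:90724552-90738438), had 79.7, 65.9, 37.8 and 45.5 CPM in mutant and 115, 132, 103 and 145 CPM in wild type cerebrum. Its cerebellum values were 36.1, 57.4, 44.9 and 61.3 CPM in mutant and 53.2, 49.5, 50.1 and 43.4 CPM in wild types. The cerebrum groups were apart and the cerebellum groups overlapped, with effects of -1.11 ± 0.21 (edgeR adjusted p = 0.102) and 0.00 ± 0.22 and a difference of 1.11 (95% interval 0.46 to 1.76). Its lowest cerebrum values were those of mutant replicates 3 and 4, and without these libraries the cerebrum effect was -0.76 and the difference 0.76. Ifrd1, an interferon-related developmental regulator gene (chr12:40201567-40248504), had 37.9 to 50.5 CPM in mutant and 25.4 to 31.2 CPM in wild type cerebellum, while its cerebrum groups overlapped (effects 0.60 ± 0.18 and -0.31 ± 0.18). Pkd1l3, a polycystin family gene (chr8:109614517-109674386), had 4.65 to 8.84 and 3.58 to 4.24 CPM in cerebellum and overlapped in cerebrum (0.81 ± 0.24 and -0.41 ± 0.23). Among the genes lower in mutant cerebellum, Sh3d19, an adaptor protein gene (chr3:85971109-86130526), had 22.8 to 26.2 CPM in mutants and 30.3 to 37.6 CPM in wild types, and 38.0 to 49.5 against 30.5 to 39.3 CPM in cerebrum, with a difference of -0.79 (95% interval -1.16 to -0.42, edgeR adjusted p = 0.732).

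Gene lists were compared between tissues by their counts and medians. They were chosen with earlier results of these data known, so their counts beside the background are descriptions. Of 35 tested ATF4 targets, 31 had a positive effect in both tissues and 1 a negative effect in both; the medians were 0.46 in cerebrum and 0.50 in cerebellum, where medians over all genes were within 0.003 of 0, and the median difference was 0.11. At an unadjusted p under 0.05, 13 were higher in cerebrum (background 6.16%), 17 in cerebellum (1.91%) and 27 on the mean effect (4.19%). None were lower at that p, where the background was 6.42%, 1.94% and 4.46%; 2 passed after adjustment over all genes, Mthfd2 and Herpud1. Atf4 itself had 0.69 ± 0.27 and 0.28 ± 0.27, Ddit3, the gene of the stress factor CHOP, 0.80 ± 0.29 and 0.81 ± 0.30, and Trib3, a pseudokinase gene, 2.13 ± 0.71 and 2.33 ± 0.65. Some members had unequal estimates, and 3 are named here for that inequality. Nupr1, a stress protein gene, had 0.13 ± 0.32 in cerebrum and 1.28 ± 0.32 in cerebellum. Slc6a9, a glycine transporter gene, had 0.69 ± 0.22 and -0.13 ± 0.22, and Slc7a3, the gene of a transporter of cationic amino acids, 1.08 ± 0.22 and 0.37 ± 0.22. No member was called by the interaction.

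The list was spread unevenly over mutant cerebella. Its mean level was 0.76, 0.55, 0.33 and 0.59 in mutant replicates 1 to 4 of cerebrum, above the wild types (-0.33 to 0.23), and 1.18, 0.03, 0.68 and 0.08 in mutant cerebellum, where wild types spanned -0.08 to 0.07. Cerebellum replicates 2 and 4, at or within the wild type range, are the libraries with the lowest En2 and granule cell marker levels (-0.66 and -1.08), and replicate 1 is the one with the lowest choroid plexus level. Without cerebellum mutant replicate 1 the cerebellum median was 0.37, and with both marker levels as covariates 0.01, while the cerebrum median was 0.70 and the median difference -1.04. The choroid plexus level was itself apart between genotypes in cerebellum, at -2.92 to -0.62 in mutants and -0.16 to 0.12 in wild types. Covariate and genotype can therefore hardly be told apart in that fit, and no conclusion is drawn from it. Aminoacyl-tRNA synthetases of the cytosol had smaller and more even values: 17 of 23 were positive in both tissues, with medians of 0.12 and 0.19, and the mean level was above all wild types in 8 of 8 mutant libraries (0.09 to 0.31 against -0.05 to 0.06). Of these, Nars passed the test, and Aars, Gars and Yars, the synthetase genes of alanine, glycine and tyrosine, had mean effects of 0.43 ± 0.09, 0.34 ± 0.07 and 0.47 ± 0.11 (edgeR adjusted p = 0.143, 0.134 and 0.157).

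**Figure D5:**
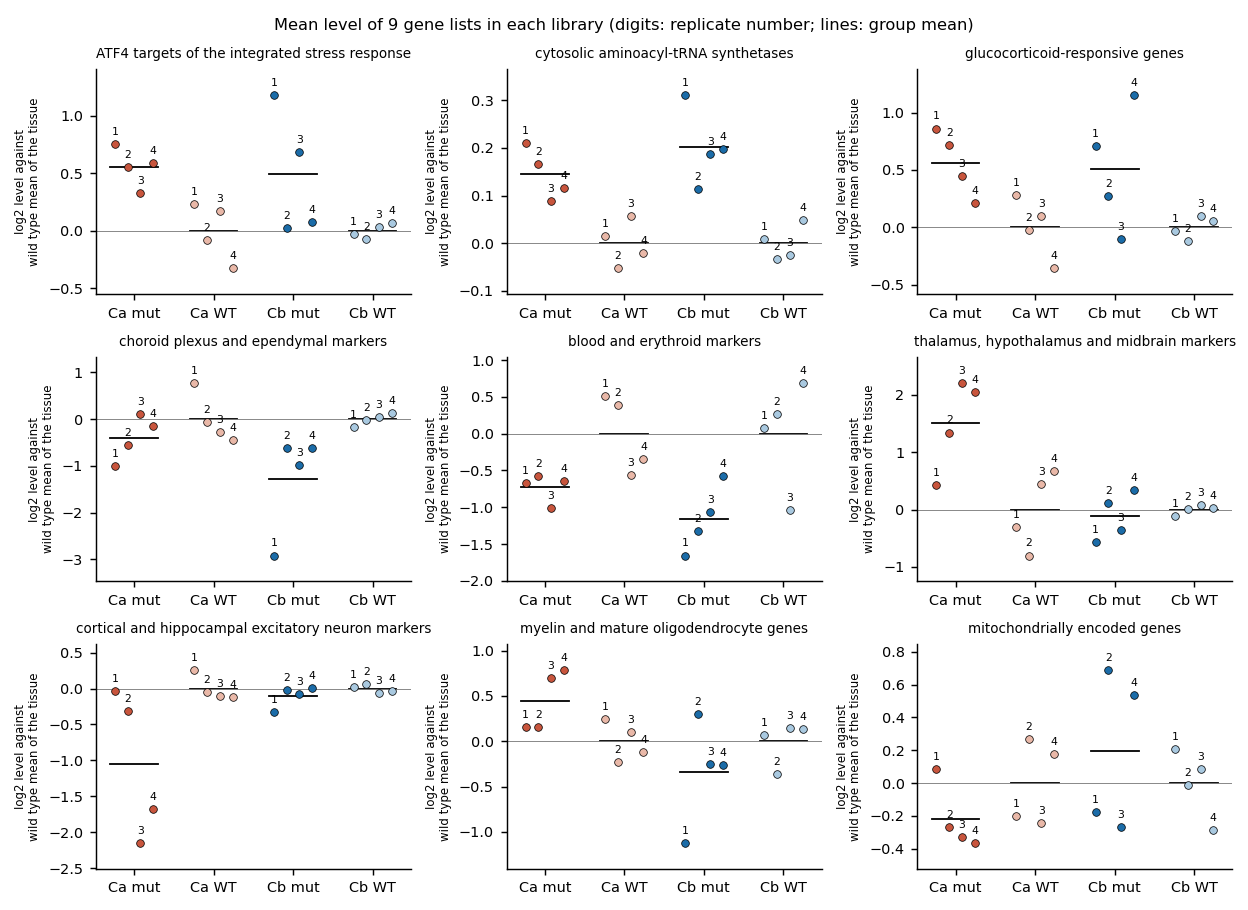
Mean level of 9 gene lists in each library, in log2 units relative to the wild type mean of the same tissue (y axis), for mutant (mut) and wild type (WT) cerebrum (Ca) and cerebellum (Cb); digits are replicate numbers and lines group means. The synthetase list is above the wild types in all 8 mutant libraries, and the ATF4 list is within or next to the wild type range in cerebellum replicates 2 and 4.

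Glucocorticoid-responsive genes had the same sign in both tissues for 13 of 13 members, 12 positive (medians 0.46 and 0.50). Their level in mutant cerebellum was 0.71, 0.28, -0.10 and 1.15 in replicates 1 to 4, an order in which replicate 3 is lowest and replicate 4 highest, as for Hif3a and Pla2g3, and in mutant cerebrum 0.86, 0.72, 0.45 and 0.22, with replicate 4 lowest. Cdkn1a, the gene of the cell cycle inhibitor p21, which both glucocorticoids and p53 induce, had 34.0 to 107 CPM in mutant and 22.2 to 39.3 CPM in wild type cerebrum, and 56.2 to 200.5 CPM in mutant and 41.4 to 62.0 CPM in wild type cerebellum (mean effect 1.25 ± 0.28, edgeR adjusted p = 0.143). p53 targets had medians of 0.13 and 0.20, with 13 of 24 positive and 2 negative in both tissues; without cerebrum mutant replicates 3 and 4 the cerebrum median was 0.28. No member of the glucocorticoid list or of the p53 list passed the test over all genes; Aen, a nuclease gene induced by p53, came nearest (0.58 ± 0.11, edgeR adjusted p = 0.0719).

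Several lists had negative medians in both tissues. Choroid plexus and ependymal markers were negative in both for 15 of 20, with medians of -0.58 in cerebrum and -0.99 in cerebellum. At an unadjusted p under 0.05, 6 of these markers were lower and 4 higher in cerebrum (background 6.42% and 6.16%). In cerebellum 9 markers were lower and 0 higher (background 1.94% and 1.91%). Their level was -2.92, -0.62, -0.99 and -0.62 in mutant cerebellum and -0.16 to 0.12 in wild types, but -1.01 to 0.11 in mutant and -0.44 to 0.78 in wild type cerebrum, where the groups overlapped. Kl, the klotho gene of the choroid plexus, had 6.04 to 23.2 against 31.3 to 77.1 CPM in cerebrum and 1.36 to 32.0 against 65.0 to 103 CPM in cerebellum, with groups apart in both tissues and a mean effect of -1.86 ± 0.42 (edgeR adjusted p = 0.161). Car12, a carbonic anhydrase gene that is not on this list, had 11.9 to 20.5 against 26.5 to 53.4 CPM and 1.77 to 13.8 against 15.9 to 25.3 CPM (-1.35 ± 0.26, edgeR adjusted p = 0.0719). Blood and erythroid markers had medians of -1.13 and -1.80, and 6 of 8 were negative in both tissues. Hba-a1 and Hba-a2, near-identical globin genes between which reads may be split, had mean effects of -2.30 ± 0.44 and -2.79 ± 0.53 (edgeR adjusted p = 0.0719 each). Without cerebrum mutant replicates 3 and 4 the cerebrum medians of the choroid plexus and blood lists were -0.96 and -0.89.

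By the unfolded protein response cells adjust the folding capacity of the endoplasmic reticulum. Of 22 tested genes on a list of this response, 10 were negative and 1 positive in both tissues. The sign was thus the same for 50% of them, against 50.2% of all genes. The list had medians of -0.14 and -0.15 and a negative mean effect for 19 of 22 (5 at an unadjusted p under 0.05, background 4.46%). Its mean level was at most -0.070 in mutant cerebrum and at least -0.050 in wild types, and at most -0.040 against at least -0.036 in cerebellum, so the groups were just apart in both tissues. Calr, the gene of the chaperone calreticulin, had a mean effect of -0.35 ± 0.09 (edgeR adjusted p = 0.255). Herpud1, the shared gene of misfolded protein degradation that rose, was counted in the ATF4 list and not in the unfolded protein response list. Atf4, Ddit3 and Trib3, with positive estimates in both tissues, are on the ATF4 list too. The values above are therefore of the genes listed and not of the whole response. Homeostatic microglia markers were negative in both tissues for 13 of 21, with medians of -0.27 and -0.15, and 7 had a lower mean effect at an unadjusted p under 0.05 (background 4.46%). Their level was -0.29 to -0.23 in mutant and -0.13 to 0.18 in wild type cerebrum, and overlapped in cerebellum (-0.57 to 0.15 against -0.17 to 0.18). MHC class II genes, which present antigens, were negative in both for 6 of 7, with medians of -0.35 and -0.83, and their levels overlapped in cerebrum (-0.39 to -0.00 against -0.14 to 0.22) and in cerebellum; the cerebrum median was -0.53 without mutant replicates 3 and 4. Neuronal immediate early genes, transcribed on activity, had medians of -0.65 and -0.21 and were negative in both for 11 of 17. At an unadjusted p under 0.05 7 of them were lower in cerebrum (background 6.42%) and 3 in cerebellum (1.94%), and without cerebrum mutant replicates 3 and 4 their cerebrum median was -0.14. No member of the lists with negative medians in both tissues named here passed.

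Other lists had estimates of opposite sign in the tissues. For genes of myelin and mature oligodendrocytes the median was 0.48 in cerebrum and -0.12 in cerebellum, with a negative interaction estimate for 24 of 24 members (8 at an unadjusted p under 0.05, background 3.37%). Their level was 0.16, 0.15, 0.69 and 0.79 in mutant cerebrum, highest in replicates 3 and 4, and -1.12, 0.30, -0.25 and -0.27 in mutant cerebellum, lowest in replicate 1. Without cerebrum mutant replicates 3 and 4 the median interaction estimate was -0.31 in place of -0.64. Without cerebellum mutant replicate 1 the cerebellum median was 0.12, and with the marker levels as covariates the median interaction estimate turned to 0.44. In that fit the choroid plexus covariate was itself apart between genotypes in cerebellum, so no conclusion is drawn from the turn. Mitochondrially encoded genes had medians of -0.29 and 0.30 and a positive interaction estimate for 13 of 13, none at an unadjusted p under 0.05. Levels overlapped in both tissues, at -0.36 to 0.09 against -0.24 to 0.27 in cerebrum and -0.27 to 0.69 against -0.28 to 0.21 in cerebellum. A list of cartilage-type collagens had medians of 0.47 and -0.40, led by Col9a3 with 11.01 to 24.9 against 5.47 to 28.3 CPM in cerebrum and 18.3 to 30.9 against 41.1 to 63.9 CPM in cerebellum (0.28 ± 0.38 and -1.07 ± 0.38). Without cerebrum mutant replicates 3 and 4 the cerebrum medians of the mitochondrially encoded genes and the collagens were -0.14 and -0.01. RNA polymerase III subunits had medians of 0.10 in cerebrum and 0.00 in cerebellum, and interferon-stimulated genes 0.12 and 0.00.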

How the data were processed

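RNA from cerebrum and cerebellum was sequenced from polyadenylated libraries. The authors deposited raw read counts per gene, per the file headers and values; HISAT2, DESeq2 and mm10 are named without versions or roles in the submitters' processing notes, and the read counter, annotation release and use of strand were not given in the sources used here. The authors' tables of fold changes were not used.

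Counts of the 16 P42 libraries were fitted in edgeR 4.0.16 (R 4.3.3; filterByExpr, TMM, quasi-likelihood F test, group plus sex), which kept 19614 of 54532 genes. Contrasts were each tissue's effect, their mean, and cerebellum minus cerebrum; p-values were adjusted by Benjamini-Hochberg over all genes, with a threshold of 0.05. SE is the absolute log2 fold change over the square root of F, and CPM uses TMM-scaled totals. List levels are the mean over members of log2(CPM + 0.5) minus the wild type mean of the tissue. P75 counts were scaled on their own and only described. The fit was tested on simulated data.

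Named were Polr3a, Esr1, the 10 genes each way with the smallest p for interaction and mean effect (5 for each tissue) among approved symbols of at least 1 CPM, genes called where 5 or fewer were, and up to 4 members per list, and of these the text gives a part. Members and lists were chosen with earlier results of these data known. Deviations of same-numbered mutant and wild type libraries correlated at 0.008 to 0.260 in cerebrum and -0.355 to 0.076 in cerebellum. In cerebrum the same-numbered libraries also shared sex. Numbers were not treated as pairs in the main fit. Alternatives were RLE or library size scaling, other filters and thresholds, DESeq2 1.42.0, other sex terms, a replicate block, libraries left out, and marker covariates; leaving out 3 libraries and the covariates without called genes were added after seeing the data. Promoter windows are from RefSeq (GRCm38.p6). Values of 1 shared gene and of some markers are not reported here.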

Additional observations from a re-analysis of the deposited data

Results flagged for a closer look

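In 5 of 88 groups of 4 libraries, over 22 genes, 1 library stood so far from the others that its gap passed Dixon's criterion, which chance passes in about 1 in 20 groups. Prkcd had 90.0 CPM in wild type cerebrum replicate 1, where the next library had 22.8 CPM. Abhd12b was also high in that library, at 2.40 CPM with the next at 0.638 CPM, and in mutant cerebellum replicate 1, at 1.02 CPM with the next at 0.207 CPM. Rab37 was low in mutant cerebellum replicate 2, at 29.5 CPM with the next at 36.8 CPM. A530053G22Rik had 0.0545 CPM, 1 count, in wild type cerebrum replicate 3 and 0 in the other 3.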

How the results depend on the processing

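The alternatives below bear on counts of genes called; the cause was not tested unless fewer libraries enter the fit. The interaction called 279 genes with no filter on low counts, 7 in DESeq2 and 0 to 2 with single libraries left out (2 without cerebrum wild type replicate 1), and 0 under the other settings. The mean effect, with 15 genes called, had 567 with no filter, 117 in DESeq2, 7 with a sex effect per tissue, 4 without cerebrum mutant replicates 3 and 4, 2 at an adjusted p under 0.01 and with either set of marker covariates, and 1 in males only or without cerebrum mutant replicates 3 and 4 and cerebellum mutant replicate 1; leaving out single libraries gave 2 to 18. The 13 shared genes became 215, 72, 5, 4, 2 and 2 with no filter, in DESeq2, with a sex effect per tissue, without cerebrum mutant replicates 3 and 4 and with the marker covariates, 1 in males only and 1 without the 3 libraries, and 1 to 16 with single libraries left out. The 12 genes called in cerebrum became 1114 with no filter, 197 in DESeq2, 4 at an adjusted p under 0.01 and with either set of marker covariates, 3 in a separate fit, 2 without cerebrum mutant replicates 3 and 4 or the 3 libraries, 0 in males only, and 3 to 81 with single libraries left out. The 1 gene called in cerebellum became 116 with no filter, 10 in DESeq2 and 2 in a separate fit, and stayed at 1 with single libraries left out. 

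With the replicate number as a block, 9 genes were called on the mean effect (3 of the 15), 10 in cerebrum (7 of the 12), 1 in cerebellum and 0 by the interaction, and 9 were shared (3 of the 13, Esr1, Hif3a and Pla2g3). Correlations of same-numbered mutant and wild type libraries ran from 0.008 to 0.260 in cerebrum and from -0.355 to 0.076 in cerebellum.

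Signs turned for estimates that passed no test. Polr3a in cerebellum ranged from -0.084 to 0.093 with single libraries left out and had -0.035 with the replicate block, -0.0099, -0.016 and -0.084 without cerebellum mutant replicate 1 and wild type replicates 3 and 4, -0.0027 without the 3 libraries, and -0.092 and -0.089 with marker covariates including and leaving out called genes. With these covariates Ebf2 had a mean effect of -0.67 and -0.47 (-0.0026 without the 3 libraries, and up to 0.79 with single libraries left out), Foxp1 0.24 and 0.082 in cerebrum (0.17 in males only), H2-Ab1 0.43 and 0.43 in cerebellum, and Olig2 an interaction of 0.27 and 0.14. The choroid plexus covariate did not overlap between genotypes in cerebellum, so adjusted estimates that involve cerebellum are hard to read. The deep region level exceeded the wild type range in all mutant cerebra but replicate 1, so adjusted cerebrum estimates are hard to read as well. In males only Rarb had a mean effect of 0.032. With 4 libraries a group, genes of few counts such as Otoa and A530053G22Rik have wide errors, and the interaction is the least precise contrast.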
